A study of Mus musculus with 2 samples.

Results

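The Ly6 surface proteins were followed here through 5 of the 32285 genes in the count files, Ly6a, Ly6e, Ly6c1, Ly6c2 and Ly6d. The 5 genes were listed by name, with no threshold on their levels, and were read in 10821 cells. Ly6a codes for Sca-1, the antigen on which the cells of the study had been sorted.

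The cells were LSKs, the lineage-negative, Sca-1-positive and c-Kit-positive fraction of mouse bone marrow, profiled by single cell RNA sequencing in droplets, where the 3′ ends of transcripts are read. The marrow of both libraries was from mice of 8-10 weeks that carried BCR-ABL, the fusion oncogene of chronic myeloid leukemia (CML), as a transgene switched on through the SCL promoter by withdrawal of tetracycline, and the marrow was taken 2 weeks after that switch. One library, miR-142 WT CML, had an intact Mir142 gene (WT below), and the other, miR-142 KO CML, was Mir142 KO as well as BCR-ABL+ (KO below). No mouse without BCR-ABL was part of the single cell comparison, and the number of mice pooled into each library was not given in the sources used here.

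With 1 library per group, the spread between mice could not be measured and no test was run. Levels are given as CPM, the count of a gene per 1000000 UMIs (unique molecular identifiers, each counting 1 captured transcript) of the same cells. Ratios are KO over WT on the log2 scale. The bracketed 95% intervals cover counting error only. They take UMIs as independent of each other, so a difference larger than its interval can still rest on few cells. Any difference is one between these libraries, and differences between mice, preparations and genotypes cannot be told apart.

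Ly6 proteins are small, cysteine-rich proteins held on the outer face of the membrane by a glycosylphosphatidylinositol (GPI) anchor. Their genes lie in a cluster, and several serve as surface markers of blood cell types: Sca-1 for stem and early progenitor cells and activated lymphocytes, Ly6C for monocytes and their precursors, and Ly6D for the specification of B cells. Ly6a and Ly6e are also known to respond to interferon.

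All 5 members lay on chromosome 15 of GRCm38, within a span of 349915 bp. Ly6d (ENSMUSG00000034634) lay at 74762056-74763620 on the minus strand and Ly6e (ENSMUSG00000022587) at 74955051-74959905 on the plus strand. Ly6a (ENSMUSG00000075602) lay at 74994877-74998031, Ly6c1 (ENSMUSG00000079018) at 75044018-75048830 and Ly6c2 (ENSMUSG00000022584) at 75108158-75111970, all 3 on the minus strand.

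The gene deleted in KO gives rise to a pair of mature miRNAs, whose sequences (RefSeq, GRCm38.p6) are shown because they define what the libraries differed in. Capitals mark the seed, bases 2 to 8, by which a miRNA pairs with the 3′ UTR of its targets. The 3p strand lay at chr11:87756903-87756925 and the 5p strand at chr11:87756867-87756887, both on the plus strand.
mmu-miR-142a-3p: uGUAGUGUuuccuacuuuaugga
mmu-miR-142a-5p: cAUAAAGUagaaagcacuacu
The 7 bases that pair with the seed, ACACTAC for 3p and ACTTTAT for 5p, were searched on the sense strand in the longest annotated 3′ UTR of each member. No member held either of them. The shorter match to bases 2 to 7 of the seed was found for 3p in Ly6e and for 5p in Ly6a, Ly6c1 and Ly6c2. Among 21039 genes with an annotated 3′ UTR, 6.03% held the 3p site of 7 bases and 14.3% the 5p site of 7 bases. The share of genes with the shorter match was not counted, so its presence in these members has no background.

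The genes Ly6c1 and Ly6c2 are near copies of each other. Over the last 500 bases of their longest coding transcripts, where a 3′ kit reads, 98.2% of aligned bases were equal, against 89.3% for Ly6a and Ly6c1, 89.0% for Ly6a and Ly6c2, and 73.2% for Ly6a and Ly6d. Of all windows of 101 bases in the last 500 bases of their coding transcripts, 7.97% for Ly6c1 and 16.4% for Ly6c2 were also found in transcripts of another gene, and none for Ly6a, Ly6e or Ly6d. These are shares of windows, not of reads, and how far reads of Ly6c1 and Ly6c2 were lost or counted for the other gene was not measured.

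The promoters of this near-identical pair are shown because the pair differed in the cells that carried its transcripts, as given further on. Promoter sequences (RefSeq, GRCm38.p6, 250 bases before to 50 after a transcript start) were at hand for 2 of the 5 members, with 2 starts each, and the upstream start of each gene is printed. Both windows are on the minus strand, Ly6c1 at chr15:75048788-75049087 and Ly6c2 at chr15:75111922-75112221. Capitals mark the TATA motif TATAAA and the ETS motif GGAAGT.
Ly6c1: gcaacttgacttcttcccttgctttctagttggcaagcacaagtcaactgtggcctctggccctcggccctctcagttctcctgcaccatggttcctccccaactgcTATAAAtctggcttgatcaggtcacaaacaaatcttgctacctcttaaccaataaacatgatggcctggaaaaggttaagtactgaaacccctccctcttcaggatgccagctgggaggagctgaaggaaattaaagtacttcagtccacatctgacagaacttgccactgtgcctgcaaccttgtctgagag
Ly6c2: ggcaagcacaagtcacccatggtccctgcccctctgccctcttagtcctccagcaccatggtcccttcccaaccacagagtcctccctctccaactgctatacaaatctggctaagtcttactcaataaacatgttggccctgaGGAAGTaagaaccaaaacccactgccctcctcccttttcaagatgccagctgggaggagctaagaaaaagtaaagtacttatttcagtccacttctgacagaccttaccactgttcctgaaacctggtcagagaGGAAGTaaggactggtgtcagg
The windows were 82.3% identical over their aligned bases. On both strands, TATAAA matched 1 time in the Ly6c1 window and 0 times in that of Ly6c2, while GGAAGT matched 0 times in Ly6c1 and 2 times in Ly6c2. The other Ly6c1 start, at chr15:75048614-75048913, held GGAAGT 1 time and no TATAAA. Of 32851 promoters of the same length, 13.6% held TATAAA and 23.8% held GGAAGT. The C/EBP motif TTGCNNAA, the GAS motif TTCNNNGAA, the ISRE motif of interferon-responsive genes and the GATA motif AGATAA matched in no window of either gene. The RUNX motif TGTGGT, held by 16.8% of promoters, matched 1 time in each Ly6c2 window and in none of Ly6c1. GGAAGT and TATAAA did not overlap in these windows.

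Of the unfiltered barcodes, 5363 WT and 5458 KO barcodes with 8000 or more UMIs and less than 10% mitochondrial UMIs were kept as cells, with medians of 19443 and 24181 UMIs. The libraries shared 4 of these barcodes. The host transcript of the deleted miRNA, Mir142hg, had 1260 UMIs in WT and 20 in KO. The sort antigen Kit stood at 86.4 and 68.3 CPM, and the progenitor antigens Cd34 and Flt3 at 255 and 199 CPM and at 48.4 and 29.3 CPM. Of the lineage antigens, Cd3e, Cd4 and Cd8a stood below 1 CPM and Itgam (CD11b) had 8.27 and 10.7 CPM. Ptprc (CD45), which is not a lineage antigen, had 92.2 and 68.3 CPM. The Fc receptor genes Fcgr3 (25.1 and 75.4 CPM) and Fcgr2b (42.6 and 71.2 CPM) were higher in KO, and so was Il7r (3.68 and 15.6 CPM).

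Cells were placed in groups by gates on marker lists that held no Ly6 gene, read in 8000 UMIs drawn at random from every cell, which removed the effect of depth on the gate. Stem-gated cells carried Hlf, Mecom, Procr and the like, lymphoid-primed cells Flt3, Dntt and Satb1, and granule-high cells the genes of primary granules Elane, Mpo, Prtn3, Ctsg and Ms4a3. Granule-high cells were split into neutrophil-leaning, monocyte-leaning and neither. Smaller gates were megakaryocyte, erythroid, mast, basophil, innate lymphoid (Icos, Il7r, Gata3, Rora, Il1rl1, Il2ra, Calca, Il18r1) and antibody-secreting (Jchain, Mzb1 and immunoglobulin genes). The remaining cells were sorted into G2/M phase, S phase and ungated.

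The sizes of the groups set every sum over all cells. WT held 1116 stem-gated, 469 lymphoid-primed, 699 granule-high, 120 mast, 66 basophil, 8 innate lymphoid and 36 antibody-secreting cells. KO held 246, 271, 2453, 173, 94, 163 and 0 of these, the last allowing a share of up to 0.055%. The gates use genes that differ between the libraries, so the sizes are given as denominators, not as results. In 239 WT cells (4.46%) and 353 KO cells (6.47%) the gates of 2 or more lineages were passed. Members were compared between libraries within the 11 groups that had 50 or more cells in both.

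Over all cells, Ly6a, Ly6e, Ly6c1 and Ly6c2 were higher in KO and Ly6d was lower. Ly6a had 96.8 CPM in WT against 153 CPM in KO (0.66 [0.63, 0.69]). Ly6e stood at 496 and 569 CPM (0.20 [0.18, 0.21]), and Ly6c2 at 103 and 123 CPM (0.25 [0.22, 0.29]). These 3 members reached a mean of 10 CPM, and Ly6a alone was 1.5-fold or more apart. Ly6a was under that fold without cells of 2 or more gates (0.39), without innate lymphoid and antibody-secreting cells (0.41) and with a minimum of 16000 UMIs (0.54), and Ly6c2 was past it in cells thinned to 8000 UMIs (0.69). Among all 7483 genes at that level, 2.78% were 1.5-fold or more higher in KO and 4.86% lower, and the median log2 ratio was -0.08. Ly6a took place 169 from the highest ratio.

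Ly6c1 and Ly6d were rare transcripts in both libraries. Ly6c1 had 66 UMIs in WT and 1043 in KO (0.478 and 6.58 CPM, log2 ratio 3.78 [3.43, 4.17]). Ly6d had 1326 UMIs in WT and 52 in KO (9.60 and 0.328 CPM, -4.87 [-5.30, -4.47]). Both lay under 10 CPM and are not part of the share of genes above.

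**Figure D1:**
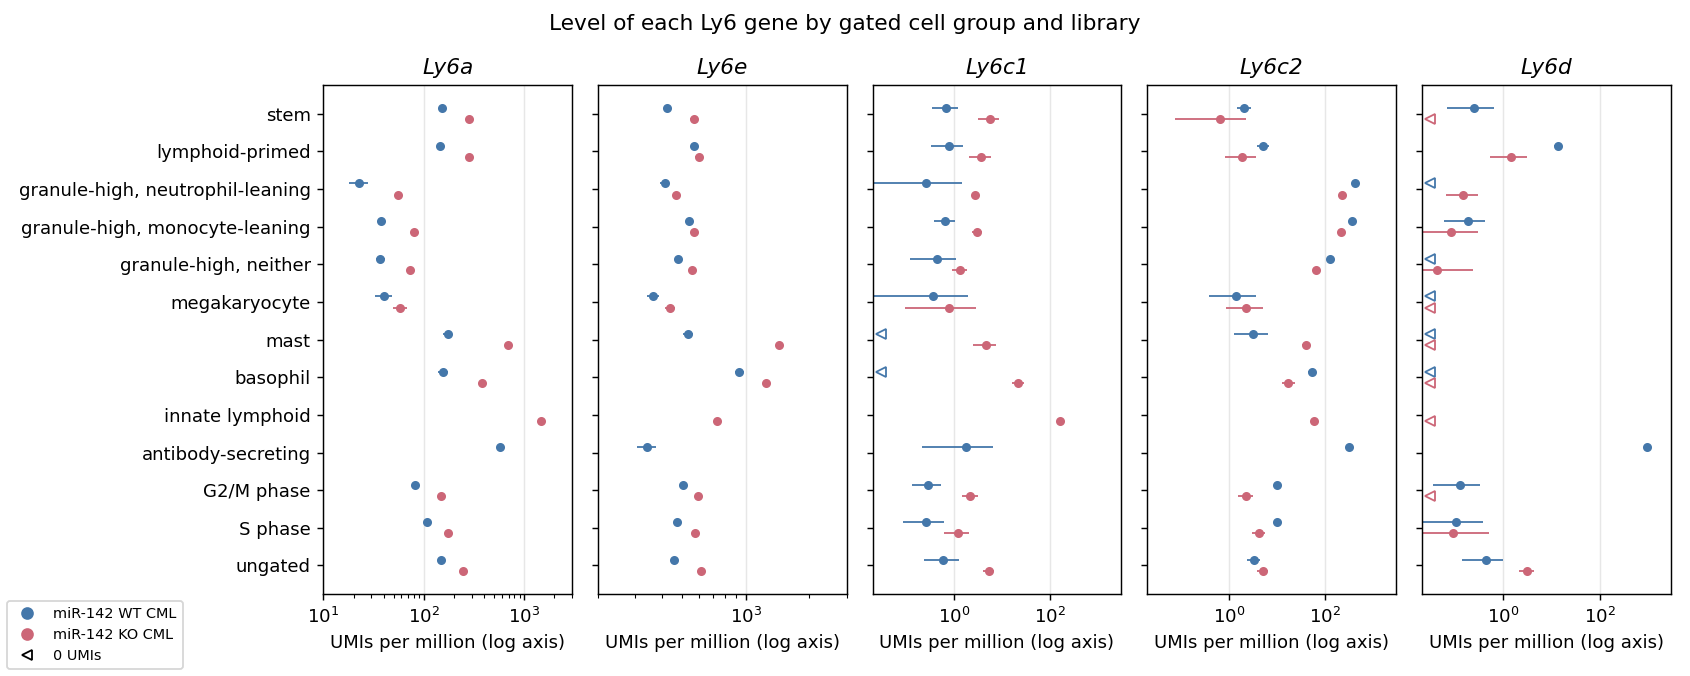
Level of each Ly6 gene (CPM on a log axis whose range differs between panels) in each gated group with 30 or more cells, WT in blue and KO in red. Bars are 95% counting intervals and open triangles mark 0 UMIs. Ly6a was highest in innate lymphoid cells of KO (1454 CPM), Ly6c2 in granule-high cells and Ly6d in antibody-secreting cells of WT (990 CPM).

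Ly6a, the gene of Sca-1, was present in all groups and, in CPM, lowest in the cells with most granule transcripts. In WT it stood at 152 CPM in stem-gated, 144 CPM in lymphoid-primed and 150 CPM in ungated cells. These 3 neighbours in the order had overlapping intervals ([146, 158], [137, 152] and [143, 157]). Mast (174 CPM) and basophil (156 CPM) cells lay in the same range, but 1 basophil cell held 135 of the 277 UMIs of its group and without it the level was 82.1 CPM.

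At the low end of WT were granule-high cells, with 22.4 CPM in neutrophil-leaning, 37.5 CPM in monocyte-leaning and 37.0 CPM in the rest. Megakaryocyte cells stood at 39.99 CPM [32.96, 48.08], which overlapped the last 2. The cells had all been sorted on the protein. After thinning to 8000 UMIs, a Ly6a UMI was found in 60.3% of stem-gated and 23.7% of granule-high WT cells, and without thinning, at median depths of 12132 UMIs in the former and 53384 to 64871 UMIs over the latter's 3 subgroups, in 73.5% and 72.8%. The difference in share between those groups thus depended on thinning. CPM is relative to all UMIs of a group, and the granule-high cells were the deeper ones. In WT, 1116 stem-gated cells held 2438 Ly6a UMIs and 699 granule-high cells held 1467. The groups were thus much closer in Ly6a UMIs per cell than in CPM.

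In KO, Ly6a was higher in 11 of 11 groups, and 1.5-fold or more so in 10. Of all genes at 10 CPM, the share that was 1.5-fold or more higher was 3.14% in stem-gated, 3.75% in lymphoid-primed, 3.52% in neutrophil-leaning, 2.71% in monocyte-leaning and 2.4% in the remaining granule-high cells. It was 3.44% in megakaryocyte, 11.0% in mast, 14.4% in basophil, 1.68% in G2/M phase, 1.89% in S phase and 2.64% in ungated cells. Ly6a was among those genes in each group but megakaryocyte. Stem-gated cells had 282 CPM in KO against 152 CPM in WT (0.895 [0.782, 1.007]), and lymphoid-primed cells 282 against 144 CPM (0.96 [0.85, 1.07]). Counted from the highest ratio, Ly6a took place 86 of 8194 genes in the former and place 89 of 7658 in the latter. Other markers differed in these groups as well, and their part in the ratios was not tested. In stem-gated cells the granule list had 828 CPM in WT against 1394 CPM in KO, the erythroid list 140 against 444 CPM and the stem list 886 against 692 CPM. In lymphoid-primed cells the granule list had 1632 against 2868 CPM, the erythroid list 57.3 against 432 CPM and the lymphoid-primed list 1379 against 848 CPM.

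The granule-high and megakaryocyte groups were the lowest in KO too, and were higher there than in WT. Neutrophil-leaning cells had 56.0 CPM (1.323 [1.015, 1.647]), at place 24 of 6877 genes, monocyte-leaning cells 79.8 CPM (1.091 [0.981, 1.201]) and the rest 72.7 CPM (0.97 [0.81, 1.15]). The innate lymphoid list differed in these granule-high groups too, and its part in the ratios was not tested. It had 9.01 CPM in WT against 31.1 CPM in KO neutrophil-leaning cells. In monocyte-leaning cells it had 4.12 against 31.9 CPM, and in the rest 4.11 against 24.2 CPM. Megakaryocyte cells had the smallest ratio, 39.99 against 57.96 CPM (0.54 [0.17, 0.90]), and cells in G2/M and S phase had ratios of 0.86 and 0.68.

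In mast cells the ratio was 174 against 691 CPM (1.99 [1.83, 2.15]), and in basophil cells 156 against 378 CPM (1.28 [1.08, 1.48]). The order of these groups turned on few cells. Without its highest cell in each library the basophil group had 82.1 against 336 CPM, and without the highest doublet scores its ratio was 2.43 and that of mast cells 2.15. The shares of all genes that differed were largest in these groups, as given above. Summed transcripts of the granule list also differed in these groups, with 1553 CPM in WT against 4629 CPM in KO mast cells and 3902 against 7220 CPM in basophil cells, and their part in the ratios was not tested. In mast cells that passed 1 gate only, Ly6a stood at 199 CPM in 59 WT cells and 558 CPM in 61 KO cells, and in such basophil cells at 80.7 CPM in 50 and 232 CPM in 37 cells.

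The ratio over all cells was smaller than those within 10 of the 11 groups, megakaryocyte cells being the exception. When both libraries were weighted to 1 mean composition of the groups with 50 or more cells in each, the Ly6a levels were 96.4 and 185 CPM, which gave a log2 ratio of 0.94 against 0.66 unweighted. The free RNA of the droplets, read from barcodes of 10 to 100 UMIs, had 129.5 CPM of Ly6a in WT against 245 CPM in KO. With free RNA subtracted at 5% of UMIs the ratio over all cells was 0.64.

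The cells with most Ly6a were the 163 innate lymphoid cells of KO, at 1454 CPM [1415, 1494]. These 163 cells held 21.7% of its Ly6a UMIs. A Ly6a UMI was found in 162 of them. The 8 WT cells of that gate had 1090 CPM [910, 1294], with 59 of 130 UMIs in 1 cell. Of the KO cells, 89 also passed another gate, and granule transcripts stood at 10021 CPM in these and 1936 CPM in the other 74. Ly6a stood at 1184 CPM in the 89 cells and 1954 CPM in the 74 cells. Leaving out innate lymphoid and antibody-secreting cells, an alternative chosen after seeing the data, lowered the ratio over all cells to 0.41.

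Ly6e, a family member best known for its response to interferon and for limiting the entry of some viruses, was spread more evenly than the others. Its WT levels in the 11 groups ran from 365 CPM in megakaryocyte to 933 CPM in basophil cells, and its KO levels from 438 CPM in megakaryocyte to 1440 CPM in mast cells. After thinning, 96.2% of WT and 98.0% of KO cells held a Ly6e UMI. Free RNA held Ly6e at 456 and 500 CPM, close to the levels in cells. How much free RNA added to the shares of cells with a Ly6e UMI was not tested.

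Ly6e was higher in KO in 11 of 11 groups by the counting interval, but 1.5-fold or more in 1, mast cells, with 533 against 1440 CPM (1.43 [1.34, 1.53]). With a minimum of 16000 UMIs the direction turned in megakaryocyte cells (-0.045). How many of all genes a counting interval would call was not counted. From the highest ratio, Ly6e took place 1136 of 7483 genes over all cells and place 121 of 7384 in mast cells. It took place 471 of 8194 in stem-gated, 2406 of 7658 in lymphoid-primed and 1907 of 6978 in monocyte-leaning cells. In mast cells 11.0% of all genes were 1.5-fold or more higher. Stem-gated cells had 422 and 569 CPM (0.43 [0.35, 0.51]). Lymphoid-primed cells had 570 and 600 CPM (0.07 [0.01, 0.14]). When the 3 granule-high groups were summed, the levels were 513 CPM in each library (-0.00 [-0.02, 0.02]), although each of the 3 was higher in KO by 0.07 to 0.22. The neutrophil-leaning cells, which had the lowest Ly6e of the 3 in both libraries, were 59 of 699 such cells in WT and 1194 of 2453 in KO.

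**Figure D2:**
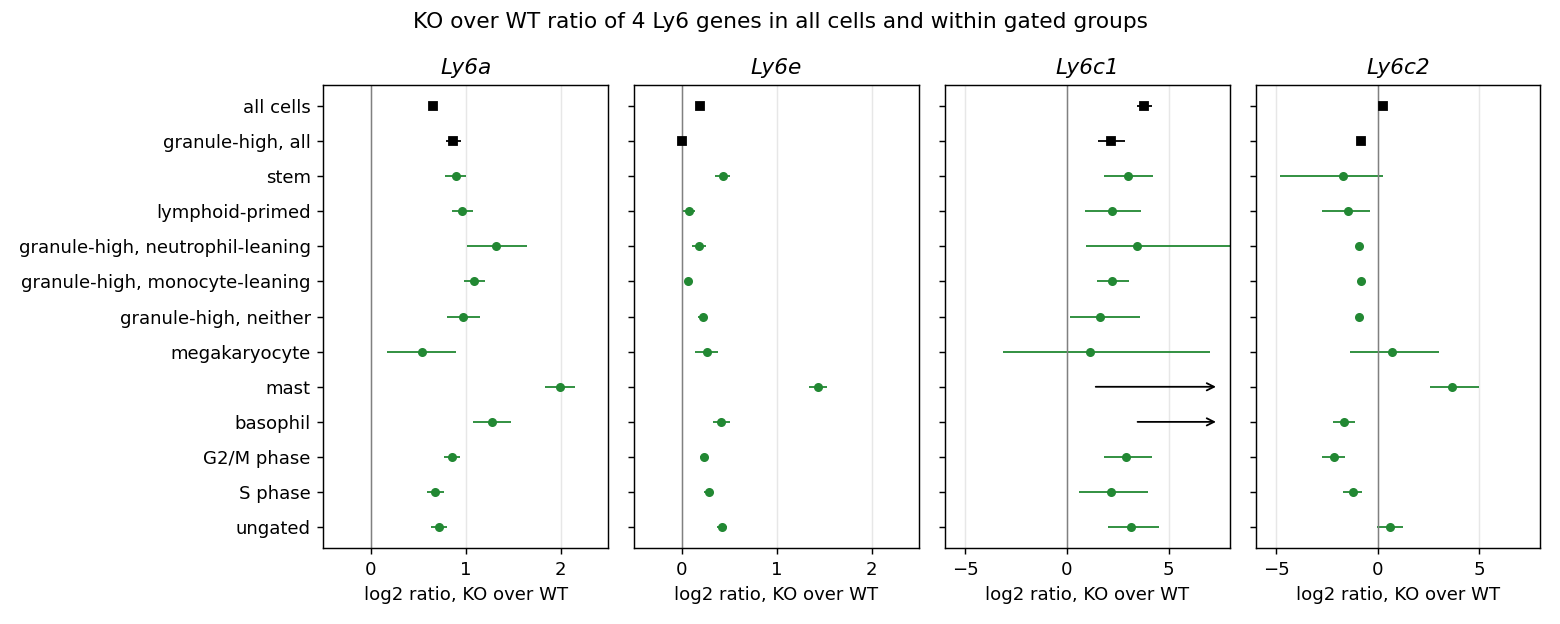
KO over WT ratio (log2) of 4 Ly6 genes in all cells and in granule-high cells as 1 group (black squares) and within 11 gated groups (green circles). Bars are 95% counting intervals, and arrows start at the lower bound where WT had 0 UMIs. Axis ranges differ between panels. Ly6a lay above 0 in each group, while Ly6c2 lay above 0 over all cells and below 0 in the 3 granule-high groups.

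Ly6c2, 1 of the pair of genes for the monocyte marker Ly6C, was a transcript of granule-high cells. These held 92.4% of its UMIs in WT and 97.2% in KO. In WT it stood at 423 CPM in neutrophil-leaning, 372 CPM in monocyte-leaning and 126 CPM in the remaining granule-high cells. Outside them, stem-gated cells had 2.11 CPM and megakaryocyte cells 1.42 CPM. Ly6c2 made up 98.98 CPM of the free RNA in WT against 118 CPM in KO, and the groups with least of it carried 1.43% and 0.543% of that level.

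Over all cells Ly6c2 was higher in KO, yet it was lower in each granule-high group. Neutrophil-leaning cells had 423 CPM in WT and 223 CPM in KO (-0.925 [-0.9996, -0.850]). Monocyte-leaning cells had 372 and 214 CPM (-0.80 [-0.85, -0.75]), and the remaining ones 126 and 65.9 CPM (-0.94 [-1.05, -0.83]). As 1 group, granule-high cells of WT had 321 CPM [316, 327] and those of KO 184 CPM [181, 187] (-0.80 [-0.84, -0.77]). All 3 groups were 1.5-fold or more lower. Of all genes at 10 CPM, 2.54% in neutrophil-leaning, 1.68% in monocyte-leaning and 1.12% in the remaining cells were that much lower in KO. In granule-high cells as 1 group, 1.96% of 6973 genes were 1.5-fold or more lower and 2.87% higher, and Ly6c2 took place 75 from the lowest ratio. The gate lists differed within these groups too, and their part in the ratios was not tested. In monocyte-leaning cells the monocyte-leaning list had 1139 CPM in WT against 784 CPM in KO and the neutrophil-leaning list 195 against 543 CPM. The monocyte-leaning list had 515 against 332 CPM in neutrophil-leaning and 385 against 307 CPM in the remaining cells. The neutrophil-leaning list had 1183 against 1347 CPM and 230 against 491 CPM there.

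The share of cells with Ly6c2 followed the same order. After thinning, a UMI was found in 62.9% [59.2, 66.5] of granule-high cells in WT and 42.5% [40.5, 44.5] in KO, and without thinning in 84.5% and 67.6%. Over all cells the shares were 11.2% in WT and 20.3% in KO. With both libraries weighted to 1 composition, the Ly6c2 levels were 103 and 56.5 CPM, and the log2 ratio was -0.86 against 0.25 unweighted.

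Outside the granule-high cells Ly6c2 was lower in KO in 4 more groups (S phase turned to 0.076 with gate cuts halved), among them basophil cells with 54.7 and 17.4 CPM (-1.65 [-2.21, -1.11]) and cells in G2/M phase with 9.97 and 2.24 CPM (-2.15 [-2.74, -1.62]). The share of all genes 1.5-fold or more lower was 9.8% in basophil, 5.24% in lymphoid-primed, 2.0% in G2/M phase and 2.1% in S phase cells. Intervals held 0 in stem-gated, megakaryocyte and ungated cells, where the shares were 5.31%, 6.59% and 2.7%, and mast cells had a share of 8.14%.

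The mast cells were the exception, in a group where 11.0% of all genes were 1.5-fold or more higher in KO and 8.14% lower. Ly6c2 had 7 UMIs in WT and 133 in KO there (3.19 and 39.8 CPM, 3.64 [2.56, 4.98]). All 7 WT UMIs were in 1 cell, and the KO UMIs in 15 cells, of which 14 also passed another gate. Granule transcripts stood at 19621 CPM in these 15 cells and 2135 CPM in the other 158. In mast cells that passed 1 gate only, Ly6c2 had 0 UMIs in 59 WT cells and 1 UMI in 61 KO cells. The part of cells with mixed markers in the mast ratio was not tested further.

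Ly6c1, the near copy of Ly6c2, had most of its KO UMIs in other cells, while its WT UMIs were too few to name a source. In WT, 23 of its 66 UMIs (34.8%) were in granule-high cells, 18 of them monocyte-leaning, and 0 in the 8 innate lymphoid cells. Granule-high cells of WT had 0.563 CPM against 0.442 CPM in the other cells (0.35 [-0.45, 1.11]). The 0 UMIs of the 8 cells allowed a level of up to 30.9 CPM. Among WT barcodes of 1000 to 8000 UMIs, all 7 Ly6c1 UMIs were in those with 3 or more innate lymphoid markers. In KO, 55.9% of its UMIs were in the 163 innate lymphoid cells, at 162 CPM [149, 175], and a UMI was found in 55.2% of them after thinning and 70.6% before. The 74 of these cells that passed no other gate had 221 CPM. Granule-high cells of KO, which held nearly all Ly6c2, had 2.49 CPM of Ly6c1. The free RNA of KO held 16.8 CPM, above the level of every KO group but innate lymphoid and basophil (21.1 CPM), and the lowest group, megakaryocyte cells, carried 4.64% of that level.

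Within the 11 groups Ly6c1 was higher in KO in 10, and in megakaryocyte cells, with 1 and 2 UMIs, the interval held 0. The direction in S phase turned (-0.60) with gate cuts halved. Stem-gated cells had 11 UMIs in WT and 17 in KO (0.684 and 5.45 CPM, 2.99 [1.82, 4.23]). Monocyte-leaning cells had 18 and 74 UMIs (0.650 and 3.04 CPM, 2.22 [1.47, 3.05]), of which 21 in KO were in 1 cell. Basophil cells had 0 UMIs in WT and 51 in 19 cells in KO, and the interval of the log2 ratio began at 3.29. Mast cells had 0 and 15 UMIs, and it began at 1.24. Innate lymphoid transcripts moved with Ly6c1 in KO, and their part in these ratios was not tested. Their list stood at 233 CPM in neutrophil-leaning cells with a Ly6c1 UMI and 16.1 CPM in those without, at 271 and 11.5 CPM in monocyte-leaning, 173 and 16.0 CPM in the remaining granule-high and 178 and 42.6 CPM in stem-gated cells. Cells of 2 or more gates held 36 of the 51 basophil UMIs and 29 of the 150 neutrophil-leaning UMIs. Free RNA of WT held 1.05 CPM of Ly6c1 against the 16.8 CPM of KO. Its part in these ratios was not tested beyond the subtraction of free RNA at 5% of UMIs, with which the ratio over all cells was 3.76.

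Ly6d, an early marker of B cell specification, was found mostly in WT cells with antibody transcripts. The 36 antibody-secreting cells held 1103 of its 1326 WT UMIs (83.2%), at 990 CPM [933, 1050], and 34 of the 36 had a UMI after thinning. These cells had Ly6c2 at 312 CPM and Ly6a at 579 CPM as well. KO had no cell in this gate. Immunoglobulin and plasma cell transcripts stood at 606821 CPM in the 34 cells with Ly6d.

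The next source of Ly6d was the lymphoid-primed group. WT had 141 UMIs in 21 of 469 cells and KO had 6 UMIs in 1 of 271 cells (13.5 and 1.43 CPM, -3.25 [-4.72, -2.09]). Free RNA held Ly6d at 16.5 CPM in WT, above the level of this group, and at 0.832 CPM in KO, and its part in the ratio was not tested. Summed lymphoid-primed markers stood at 3517 CPM in the 21 WT cells with Ly6d and 1261 CPM in the other 448. Granule transcripts stood at 508 and 1694 CPM. The 448 cells without a Ly6d UMI had a median of 19385 UMIs and the 21 with one a median of 23836 UMIs.

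Elsewhere Ly6d rested on single cells. In ungated cells KO had 34 UMIs against 5 in WT (2.84 [1.48, 4.55]), but 33 of the 34 were in 1 cell, and without it the KO level was 0.0903 CPM against 0.428 CPM in WT. One innate lymphoid cell of WT held 62 UMIs. Intervals held 0 in 9 of the 11 groups. Mast, basophil and megakaryocyte cells had 0 UMIs in both libraries.

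**Figure D3:**
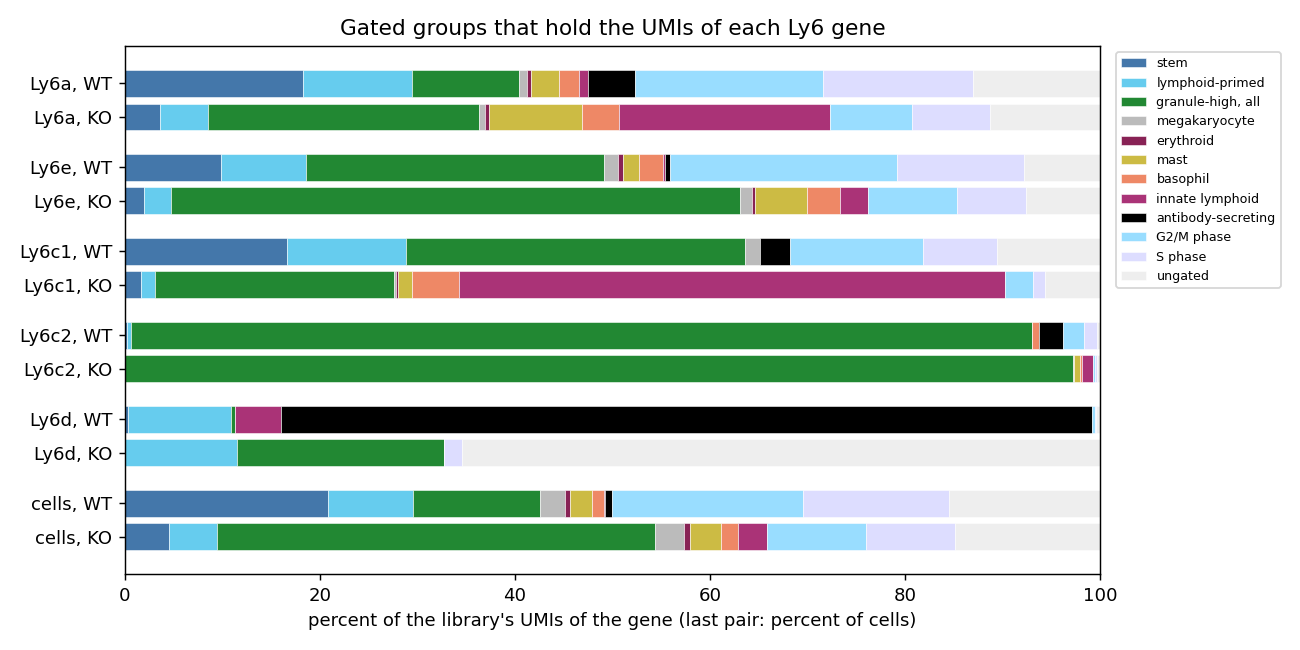
Percent of the UMIs of each Ly6 gene that came from each gated group, by library, with the percent of cells in the last pair of bars. Ly6c2 came mostly from granule-high cells in both libraries (92.4% and 97.2%), Ly6c1 of KO from innate lymphoid cells (55.9%) and Ly6d of WT from antibody-secreting cells (83.2%).

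In single cells, Ly6a and Ly6c2 were found together less often than independent draws from all cells would give, and nearer to that number within granule-high cells. After thinning, 179 WT cells held both against 297 under independence (ratio 0.60), and 356 KO cells against 578 (0.62). Within granule-high cells the ratios were 0.96 in WT and 0.86 in KO, with 100 and 305 cells holding both. Of the 192 KO cells that held Ly6c1, 168 held Ly6a, against 100.3 under independence (ratio 1.68). In WT 12 of 22 did, against 10.8 (1.11). Within the innate lymphoid cells of KO, 162 of 163 held Ly6a, so the ratio of 1.006 there could not have been higher and is not informative. In these cells the correlation of the log levels of Ly6a and Ly6c1 was 0.57 (n = 163 cells of 1 library). The 89 of them that passed another gate had less of both, with 1184 and 129 CPM against 1954 and 221 CPM in the other 74.

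Over 23 profiles, each a gated group of 1 library with 50 or more cells, the levels of Ly6a and Ly6c1 had a Pearson correlation of 0.73, Ly6a and Ly6e of 0.69 and Ly6a and Ly6c2 of -0.33. The profiles share 2 libraries and are not independent. By the same measure, the genes most like Ly6a were Nfkbiz (0.93), Il10ra (0.89) and AA467197 (0.88). Those most like Ly6e were Dhx40 (0.89), Plaur (0.86) and Cst3 (0.85). Ly6c1 was most like Cysltr1 (0.90), Atp2b1 (0.85) and Fkbp5 (0.83), and Ly6c2 most like Pgd (0.97), Atp6v0c (0.94) and Znhit1 (0.94). For Ly6d they were Dntt (0.72), Mgat1 (0.68) and Slc29a3 (0.65), Dntt being a gene of the lymphoid-primed gate. The 36 antibody-secreting cells of WT, which held most Ly6d UMIs, were too few for a profile. The genes named for Ly6d therefore leave out its main source. For Ly6c1, 1 profile stood apart, KO innate lymphoid cells with 162 CPM. The 11 other KO groups had at most 21.1 CPM and the WT groups at most 0.767 CPM. How far the correlations of Ly6c1 rest on that profile was not tested.

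The rest of the Ly6/uPAR family was little expressed. Of 38 further family genes in the files, 14 had no UMI and 2 reached a mean of 10 CPM. Cd59a, an inhibitor of complement, was lower in KO (15.1 and 5.19 CPM, -1.54 [-1.65, -1.42]), and Plaur, the urokinase receptor, stood at 13.6 and 19.2 CPM (0.50 [0.42, 0.59]). Below 10 CPM, Cd59b (-0.94) and Lypd6b (-2.03) were lower and Ly6k higher (0.24) by their intervals, while those of Ly6g5b, Ly6i and Lynx1 held 0.

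Cd59a was highest in the few erythroid cells, with 62.5 CPM in WT and 33.6 CPM in KO. It stood at 35.6 CPM in stem-gated and 42.8 CPM in megakaryocyte cells of WT, and at 25.3 and 21.4 CPM in KO. In granule-high cells it stood at 2.77 and 2.27 CPM.

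The genes that build and attach the GPI anchor, on which Ly6 proteins depend for their place on the membrane, differed little. Of 31 such genes in the files, 21 reached 10 CPM, 1 was 1.5-fold or more higher in KO and 0 lower, where 2.78% of all genes were higher and 4.86% lower. That gene was Piga, which codes for a subunit of the first enzyme of the pathway, with 10.9 and 19.4 CPM (0.83 [0.74, 0.92]). The median log2 ratio of the 21 was 0.03, against -0.08 over all 7483 genes.

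Genes of the interferon response did not share the direction of Ly6a and Ly6e. Of 45 listed genes, 21 reached 10 CPM, 0 were 1.5-fold or more higher in KO and 11 lower, with a median log2 ratio of -0.64. Over all genes 2.78% were higher and 4.86% lower, with a median of -0.08. The largest differences were in Ifi27l2a (24.6 and 2.92 CPM, -3.07), Rtp4 (19.3 and 2.84 CPM, -2.76), Trim30a (30.6 and 9.13 CPM, -1.74) and Isg15 (15.8 and 5.37 CPM, -1.56). Over the same cells Ly6a had a ratio of 0.66 and Ly6e of 0.20.

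The minimum of 8000 UMIs left out 1295 barcodes of WT and 1253 of KO with 1000 to 8000 UMIs, in which the members were at other levels than in the cells above. Ly6a had 451 CPM [432, 469] in WT against 2503 CPM [2464, 2543] in KO. Ly6e had 574 and 1021 CPM, and Ly6c1 1.37 and 264 CPM. Ly6c2 stood at 7.07 and 5.78 CPM and Ly6d at 17.9 and 9.15 CPM.

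In KO, 576 of these barcodes, with a median depth of all 1253 of 5160 UMIs, held UMIs of 3 or more of the 8 innate lymphoid markers, against 83 in WT. They held 85.9% of the Ly6a and 99.2% of the Ly6c1 of the KO barcodes below the minimum, at 5166 and 629 CPM. In the other KO barcodes below it, Ly6a stood at 603 CPM and Ly6c1 at 3.85 CPM. The levels over all kept cells do not include these barcodes.

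**Figure D4:**
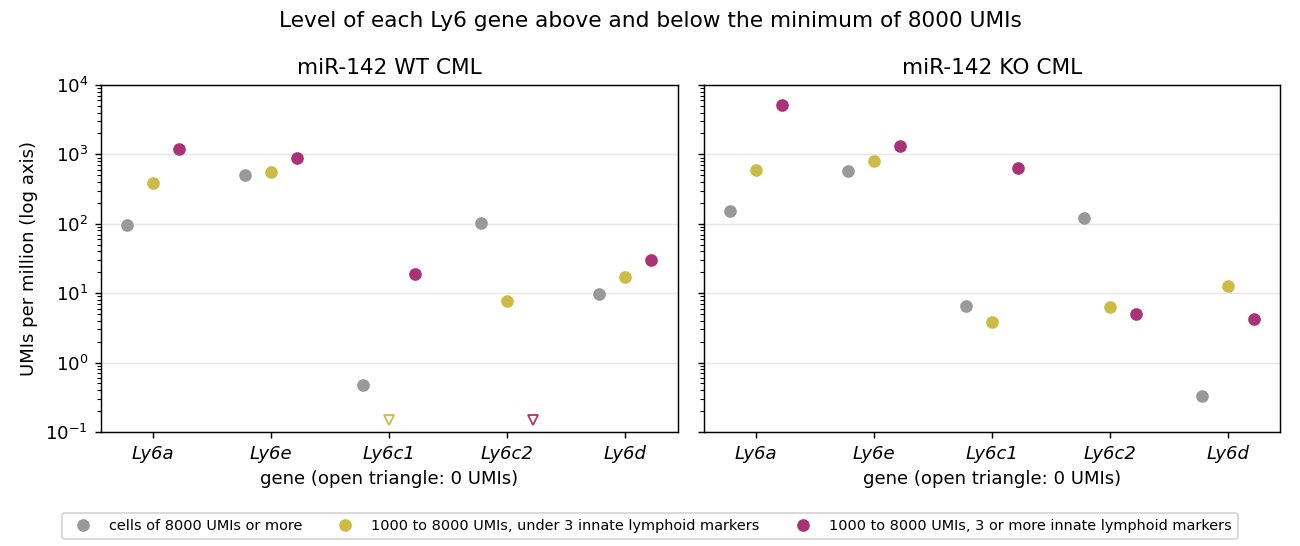
Level of each Ly6 gene (CPM, log axis) in the kept cells (grey) and in barcodes of 1000 to 8000 UMIs with under 3 (yellow) and with 3 or more (purple) innate lymphoid markers, WT left and KO right. Open triangles mark 0 UMIs. Ly6a and Ly6c1 were highest in KO barcodes with those markers, at 5166 and 629 CPM.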

How the data were processed

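Per the labels, cells were captured with a Next GEM 3′ kit v3.1. The deposited matrices hold raw UMI counts that the authors made with Cell Ranger (6.1.2 in the submitters' processing notes, 4 in the file headers) on mm10, unfiltered and not normalized. Barcodes with 8000 or more UMIs and under 10% mitochondrial UMIs were kept. Counts were summed per library or gated group, with exact Poisson intervals for levels, exact conditional binomial intervals for ratios and Clopper-Pearson intervals for shares (95%, counting error only). Shares were read after thinning each cell to 8000 UMIs. Gates used summed UMIs and distinct markers of fixed lists, and their cuts were set after the distributions were seen, without Ly6 values. The members and lists were chosen with earlier results of these data known.

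The genes named were the 5 members, the family genes with 50 or more UMIs, the GPI anchor and interferon genes at 10 CPM and 1.5-fold apart (at most 4 each way), the 3 genes most alike to each member, and sort antigens. Doublets were kept. The automatic threshold of Scrublet (scanpy 1.11.5) marked 1 and 0 cells and had not worked, so the 230 and 238 cells with the highest scores were left out as an alternative. TMM factors came from edgeR 4.0.16 (R 4.3.3). The ratio and its interval were tested on simulated data. Gene positions and transcripts came from GENCODE on GRCm38.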

Additional observations from a re-analysis of the deposited data

Results flagged for a closer look

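The ratio of Ly6c2 had opposite directions in different groups. It was 3.64 (log2, KO over WT) in mast cells and -2.15 in cells in G2/M phase, and the difference between these groups was not tested. The mast value rested on 15 KO cells, 14 of which passed a further gate, and on 7 WT UMIs in 1 cell.

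The ratio of Ly6d was 2.84 in ungated and -3.25 in lymphoid-primed cells, again not tested. In each of these groups the KO value came from 1 cell with 33 and 6 UMIs, apart from 1 further UMI in the ungated cells.

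In barcodes of 1000 to 8000 UMIs, which entered no comparison of libraries, Ly6a (2503 CPM), Ly6e (1021 CPM) and Ly6c1 (264 CPM) were higher in KO than in WT (451, 574 and 1.37 CPM) by their counting intervals. Of the KO UMIs of these genes, 85.9%, 54.6% and 99.2% were in the 576 barcodes with 3 or more innate lymphoid markers.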

How the results depend on the processing

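No paired analysis was possible because each group had 1 library and the labels carry no replicate numbers, and leaving out a replicate was not possible for the same reason. The log2 ratios over all cells kept their direction under every setting run except that of Ly6c2, which was -0.86 when both libraries were weighted to 1 composition of groups, where Ly6a was 0.94, Ly6e 0.32, Ly6c1 2.94 and Ly6d -0.83. With a minimum of 1000 UMIs they were 1.14 for Ly6a, 0.23 for Ly6e, 5.003 for Ly6c1 and -3.90 for Ly6d, and with 16000 UMIs 0.54 for Ly6a, 0.11 for Ly6e and 0.17 for Ly6c2. Size factors gave 0.74 for Ly6a, 0.28 for Ly6e and 0.33 for Ly6c2, and TMM, which shifts all ratios by 0.16, gave 0.82, 0.36 and 0.42. Cells thinned to 8000 UMIs gave 0.83, 0.39 and 0.69 for these 3. Without cells of 2 or more gates the ratios were 0.39 for Ly6a, 0.14 for Ly6e and 3.19 for Ly6c1, and without the highest doublet scores 0.22 for Ly6c2. Without innate lymphoid and antibody-secreting cells, a setting chosen after seeing the data, they were 0.41 for Ly6a, 2.67 for Ly6c1, 0.29 for Ly6c2 and -1.81 for Ly6d. The KO minus WT difference in share of cells was 4.50 points for Ly6e and 1.85 for Ly6c1 when thinned to 4000 UMIs, and 0.544 for Ly6e, 5.42 for Ly6c1 and 16.3 for Ly6c2 without thinning. At 1 CPM or more, 3 family and 28 interferon genes were lower in KO, and at 50 CPM or more 0 family and 0 interferon genes were lower and 0 GPI anchor genes higher. Within groups, 188 values moved less than their interval, 48 moved more and 3 reversed, Ly6c1 (-0.60) and Ly6c2 (0.076) in S phase with gate cuts halved and Ly6e in megakaryocyte cells (-0.045) with a minimum of 16000 UMIs. In mast cells, leaving out cells of 2 or more gates gave 1.48 for Ly6a and 1.14 for Ly6e. Of ratios of a group over the other cells of its library, 8 reversed. With cuts halved these were, in WT, Ly6d in lymphoid-primed (-0.34), Ly6e (0.032) and Ly6c2 (-1.10) in granule-high cells of neither leaning and Ly6e in G2/M (-0.045), and in KO, Ly6e in lymphoid-primed (-0.013), Ly6d in neutrophil-leaning (2.65) and Ly6e in cells of neither leaning (0.037). With cuts doubled, Ly6c2 in KO cells of neither leaning was 0.72. The cause of these moves was not tested. Depth limited Ly6c1 and Ly6d, which rested on few UMIs in most groups.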
